A study of Bos taurus with 29 samples.

Results

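The comparison described here asked whether bovine corpus luteum held different transcripts after medium from endometrial explants that had been kept with an in vitro produced embryo than after medium from explants kept without an embryo. Its members were the 6 corpus luteum libraries labelled CM_EE_IVF and CM_EE, of 12 corpus luteum libraries and 21 libraries in the series, and they were described across all genes. The groups are written here as CL-CM-EE-IVF and CL-CM-EE, with 3 libraries each, numbered R2, R4 and R5 in both. The other 6 corpus luteum libraries carried the labels NC, read as the control without explant medium, and CM_EE_AI, written CL-CM-EE-AI, for explants kept with an embryo produced in vivo.

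The endometrial explants were cultured with a single embryo of day 7 or with none, and CM is taken here to mean culture medium from those explants, a reading the labels leave unsaid. All groups share bovine tissue from a slaughterhouse source, and all CL-CM groups had medium from explants. The contrast thus concerns explants kept with an embryo against explants kept without one. What came from the embryo and what from the explants beside it cannot be told apart. The labels give no age, breed or stage of the luteal tissue, do not say what the R number marks, and do not say whether R2, R4 and R5 were separate animals. The p-values therefore measure the spread between these samples, which may be technical. For R4 and R5 the labels list 2 sample titles per group and the count table has 1 column, which was used as 1 library.

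The corpus luteum is the gland that forms from the ovulated follicle and makes progesterone, the hormone that maintains pregnancy. Its luteal cells take up or make cholesterol, move it into mitochondria with STAR, and convert it with CYP11A1 and HSD3B1. They lie among a dense capillary network, pericytes, fibroblasts and immune cells. In cattle the conceptus keeps the gland alive mainly through interferon tau acting on the endometrium, which restrains the release of prostaglandin F, the signal for luteal regression. Extracellular vesicles are membrane-bound particles that cells shed and that can carry RNA and protein between tissues.

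The 6 libraries held 16536797 to 25747637 counts each. Mitochondrial transcripts took between 45.8% and 64% of these counts, and COX1, a subunit of cytochrome c oxidase, was the top gene in 4 of the 6 libraries. STAR, CYP11A1 and HSD3B1 were present in all 6 libraries, at 144 to 527, 177 to 644 and 423 to 1322 counts per 1000000 (CPM), as markers of steroid-making luteal cells. Libraries with the same R number deviated together: over 18939 genes, the deviations of CL-CM-EE and CL-CM-EE-IVF from their group means correlated with r = 0.57 in R2, 0.36 in R4 and 0.60 in R5. In R2 the 4 corpus luteum libraries fell into 2 pairs. CL-CM-EE and CL-CM-EE-IVF deviated together, as did CL-NC and CL-CM-EE-AI with r = 0.66, while the 4 correlations across these pairs were between 0.08 and 0.11. The cause of this split was not tested.

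No gene passed the test between CL-CM-EE-IVF and CL-CM-EE. In the edgeR quasi-likelihood test with the R number as a block, 0 of 18939 genes (0%) had a Benjamini-Hochberg adjusted p under 0.05, and the lowest adjusted p was 0.947. DESeq2 with the same block also called 0 genes, with a lowest adjusted p of 0.0619. At an unadjusted p under 0.05, 616 genes (3.25%) were higher and 360 genes (1.9%) were lower in CL-CM-EE-IVF. Together they were 976 genes, where 5% of all genes tested is 947. These 976 genes became 285 without the block and 1603 with only the 6 libraries of the 2 groups in the fit. They became 509 without R2, 606 without R4, 547 without CL-CM-EE R4, 521 without CL-CM-EE-IVF R2 and 512 without CL-CM-EE-IVF R4. PPID, a chaperone-associated isomerase, passed the adjusted threshold once R2 was left out (log2 fold change -2.76, adjusted p = 0.00555 by edgeR), and NGLY1, a deglycosylating enzyme, once CL-CM-EE R2 was left out (-1.64, adjusted p = 0.0408). With DESeq2 the higher and lower counts were 516 and 530, and with RLE size factors in edgeR 484 and 432, so the split between higher and lower genes depended on the scaling. It also depended on the block and on R2: the counts were 119 higher and 166 lower without the block, 240 and 269 without R2, and 342 and 436 without CL-CM-EE R2. In all 3 R numbers, 3369 genes (17.8%) were higher and 2559 genes (13.5%) lower. The groups did not overlap, with all CL-CM-EE-IVF libraries above all CL-CM-EE libraries, for 600 genes (3.17%), and in the opposite order for 461 genes (2.43%). Standard errors of the log2 fold changes had a median of 0.35, and this ranged from 1.03 for genes under 1 CPM to 0.21 for genes over 64 CPM. Since no gene passed, every gene below is given by its values, its log2 fold change and the standard error or 95% interval, and none is called changed.

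**Figure D1:**
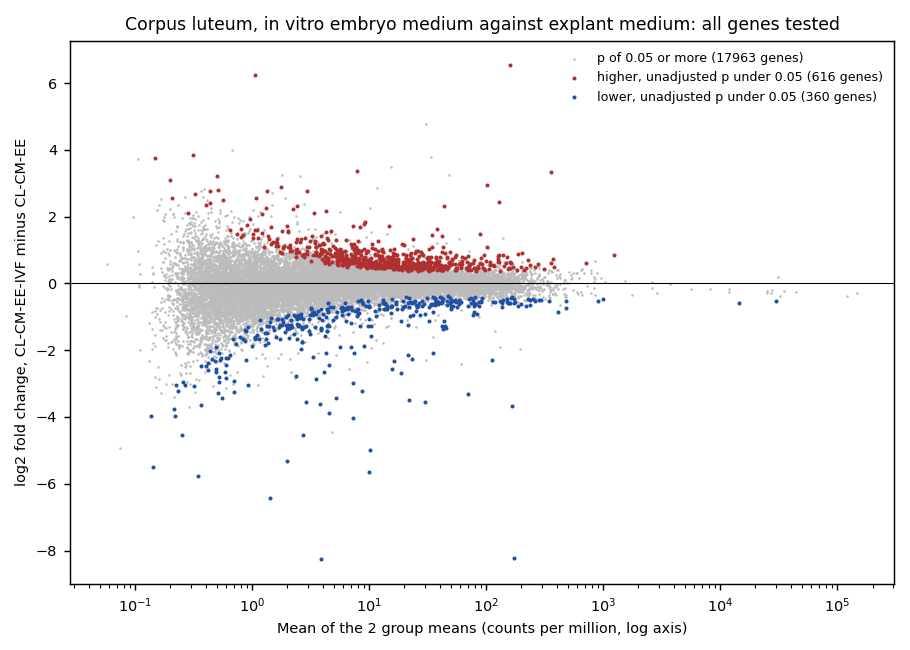
Each point is 1 of the 18939 genes tested, with the mean level of both groups in CPM on a log axis and the log2 fold change, CL-CM-EE-IVF minus CL-CM-EE, from the fit with the R number as a block. Red points (616) and blue points (360) have an unadjusted p under 0.05, and the spread around 0 widens as the level drops.

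Among genes with the same direction in R2, R4 and R5, 10 were named on the higher side by their unadjusted p, and they were of mixed function. WDR19, a subunit of the complex that returns cargo along cilia, had 18.6, 21.8 and 66.2 CPM in CL-CM-EE (R2, R4, R5) and 38.2, 52.2 and 94.4 CPM in CL-CM-EE-IVF. The log2 fold change was 0.95 ± 0.19 (SE, n = 3 per group; adjusted p = 0.957 by edgeR), and the groups overlapped because R5 was high in both. CDH11, a cadherin of mesenchymal cells, had 35.7, 55.7 and 43.9 CPM in CL-CM-EE and 64.7, 102 and 68.7 CPM in CL-CM-EE-IVF. Here the groups did not overlap, and the log2 fold change was 0.80 ± 0.16.

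ODF2L, a centriolar protein, was at 20.9, 16.6 and 28.1 CPM in CL-CM-EE and at 53.8, 39.0 and 37.0 CPM in CL-CM-EE-IVF (log2 fold change 1.02 ± 0.21), without overlap. ZMYM3, a zinc finger protein of chromatin, had 5.98, 11.4 and 13.7 CPM against 14.2, 25.4 and 20.0 CPM in CL-CM-EE-IVF, again without overlap. The remaining 6 genes of this group were GRB14, an adaptor that restrains the insulin receptor, PHF8, a histone demethylase, ANAPC5, a subunit of the anaphase-promoting complex, DPYSL3, a cytoskeletal protein, NADSYN1, the NAD synthetase, and CLHC1. Their log2 fold changes ran from 0.73 (GRB14) to 1.06 (NADSYN1). Of all 10 genes, the groups stood apart for CDH11, ODF2L, ZMYM3 and DPYSL3 only. Over all genes 3.17% stood apart on this side, and choosing genes by p and direction favours such genes.

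On the lower side, the named genes included several channels and signalling proteins, most of them at low levels. PDE4D, a phosphodiesterase that breaks down cyclic AMP, had 1352, 364 and 183 CPM in CL-CM-EE and 594, 213 and 159 CPM in CL-CM-EE-IVF. Its log2 fold change was -0.73 ± 0.20, and the difference shrank from -1.19 in R2 to -0.20 in R5. ATP8B1, a phospholipid flippase, had 131, 53.7 and 28.2 CPM against 76.2, 26.1 and 23.5 CPM. Both genes followed the R number more than the medium, so their groups overlapped.

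PERM1, a regulator of muscle mitochondrial genes, stood apart between groups, with 10.5, 20.9 and 11.8 CPM in CL-CM-EE and 3.70, 9.85 and 5.14 CPM in CL-CM-EE-IVF. KCNMB4, a subunit of calcium-activated potassium channels, had 8.37, 14.8 and 17.5 CPM against 3.87, 7.51 and 8.27 CPM, with close differences of -1.09, -0.97 and -1.07 in R2, R4 and R5. BEST1, a chloride channel, had 5.18, 2.30 and 4.70 CPM against 1.10, 1.09 and 1.46 CPM. SCN4A, a sodium channel best known from muscle, had 5.38, 7.97 and 5.71 CPM against 1.83, 3.27 and 2.87 CPM.

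SPATC1 had the largest difference of these 10 genes, with a log2 fold change of -4.53 ± 1.19, but it was uneven. It had 6.82, 0.281 and 8.39 CPM in CL-CM-EE and 0.0850, 0.242 and 0.343 CPM in CL-CM-EE-IVF, so R4 was low in both. The last 3 genes were DNAH17, an axonemal dynein, PRRT1B, and PCDH1, a protocadherin, with log2 fold changes of -1.28, -1.34 and -0.72. Of all 10 genes, the groups stood apart for PERM1, KCNMB4, BEST1, SCN4A and PRRT1B only. Over all genes 2.43% stood apart on the lower side, and choosing genes by p and direction favours such genes.

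The 39 gene lists, 25 of pathways and 14 of cell type markers, were each described by counts and by the median log2 fold change, set beside 50.8% of all genes above 0 and a median of 0.01 over all genes. Counts of members with an unadjusted p under 0.05 are read against the 3.25% higher and 1.9% lower of all genes. Over all genes these counts were 376 higher and 230 lower of 18903 without R4, and 240 and 269 of 18670 without R2. They were 519 and 364 of 18732 without R5, and 119 and 166 of 18939 without the block. With only the 6 libraries of the 2 groups they were 825 and 778 of 17346. For 16 of the 39 lists the median turned sign when 1 R number was left out, 6 of them without R2, 8 without R4 and 6 without R5, and some lists did so for more than 1. The highest medians with at least 10 members tested were those of fibroblast, smooth muscle, cholesterol synthesis and collagen genes, and the lowest were those of T and NK cell, mitochondrially encoded and endothelial genes.

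**Figure D2:**
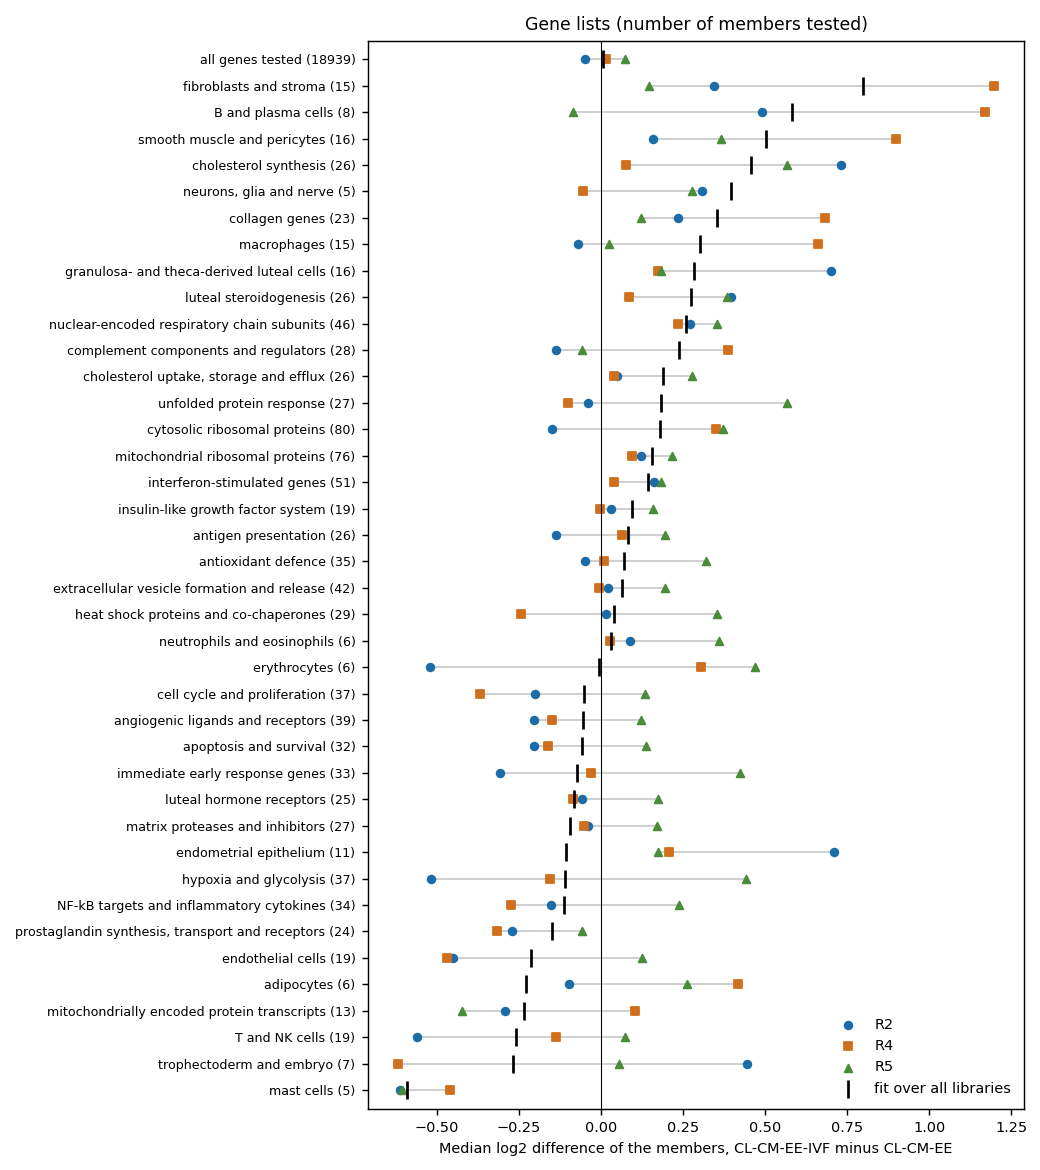
Each row is a gene list with its number of tested members, and the horizontal axis is the median log2 difference, CL-CM-EE-IVF minus CL-CM-EE. Coloured points are medians within R2, R4 and R5, the black bar is the median from the fit, and the top row holds all genes. Fibroblast genes lie to the right in all 3 R numbers, at 0.34, 1.20 and 0.15, and endothelial genes lie left of 0 in R2 and R4 and at 0.12 in R5.

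Genes of fibroblasts and stroma had the highest median. Of 15 tested members, 13 were above 0, 7 had an unadjusted p under 0.05 on the higher side and 0 on the lower side, and the median was 0.80. Their summed level was 934, 617 and 485 CPM in CL-CM-EE and 1318, 1260 and 580 CPM in CL-CM-EE-IVF, so the groups overlapped and R4 differed most. In bulk tissue, more cells of a type and more RNA per cell cannot be told apart. DCN, the matrix proteoglycan decorin, had 45.6, 30.0 and 17.8 CPM in CL-CM-EE and 68.4, 46.4 and 30.4 CPM in CL-CM-EE-IVF. Its differences of 0.58, 0.63 and 0.77 were close in the 3 R numbers, and the fit gave 0.66 ± 0.18.

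PDGFRA, the receptor for platelet-derived growth factor that marks fibroblasts, had 14.4, 8.31 and 15.3 CPM against 32.7, 23.5 and 24.7 CPM (log2 fold change 1.14 ± 0.34), without overlap. COL1A1 and COL3A1, chains of fibrillar collagens, and LUM, the proteoglycan lumican, were chosen after their values were seen and had log2 fold changes of 0.90, 0.80 and 0.84. The 2 members below 0 were PI16 (-0.63) and POSTN (-0.37). Without the libraries of R4 the list median dropped to 0.37, with 11 of 15 members above 0 and 4 with an unadjusted p under 0.05, and without the block 1 member had one.

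Among collagen genes, 16 of 23 were above 0, with a median of 0.35, and 8 had an unadjusted p under 0.05 on the higher side against 0 on the lower. COL1A2 had 110, 41.8 and 50.7 CPM in CL-CM-EE and 179, 160 and 64.8 CPM in CL-CM-EE-IVF, a log2 fold change of 1.08 ± 0.32 to which R4 added most (1.93). COL6A2, a chain of the microfibrillar collagen VI, had 61.0, 39.0 and 47.9 CPM against 89.7, 62.6 and 65.3 CPM. Its groups stood apart, with differences of 0.55, 0.68 and 0.45. COL6A1 was at 108, 35.6 and 101 CPM and at 157, 74.4 and 126 CPM, higher in each R number but overlapping.

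The basement membrane chains COL4A1 and COL4A2, chosen after their values were seen, were on the other side of 0, at -0.18 and -0.14. Collagen genes with an unadjusted p under 0.05 numbered 2 higher and 1 lower without R4, and 1 higher and 0 lower without the block.

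Markers of smooth muscle and pericytes, the mural cells of vessels, had a median of 0.50, with 13 of 16 above 0 and 5 at an unadjusted p under 0.05. TPM2, a tropomyosin, had 23.0, 32.9 and 32.2 CPM in CL-CM-EE and 36.8, 75.7 and 41.7 CPM in CL-CM-EE-IVF, without overlap. NOTCH3, the Notch receptor of mural cells, had 12.8, 19.2 and 30.4 CPM against 26.6, 49.1 and 31.7 CPM. TAGLN, an actin-binding protein of smooth muscle, had 13.4, 20.6 and 10.4 CPM against 17.9, 73.3 and 12.2 CPM. For these 2 genes the R5 libraries were nearly level, with differences of 0.06 and 0.23. Without R4, 0 members had an unadjusted p under 0.05 and the median was 0.30.

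**Figure D3:**
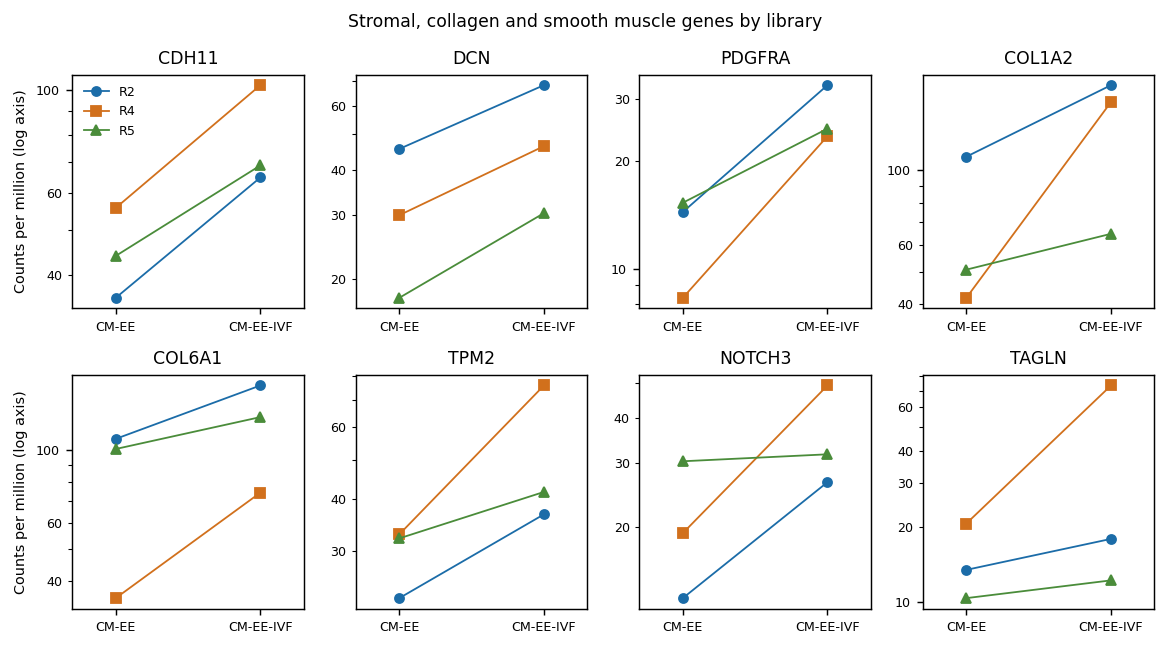
CPM on a log axis in the CL-CM-EE and CL-CM-EE-IVF library of each R number, joined by a line, for 8 stromal, collagen and mural genes. All lines slope upward, the R4 lines of COL1A2 and TAGLN most (differences of 1.93 and 1.83 log2 units), and the R5 line of NOTCH3 is nearly flat (0.06).

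Macrophage markers had a median of 0.30, made by R4 (0.66), with medians of -0.07 in R2 and 0.03 in R5. CD163, a scavenger receptor of macrophages, had 4.68, 4.88 and 4.52 CPM in CL-CM-EE and 7.94, 17.6 and 4.80 CPM in CL-CM-EE-IVF. The R4 pair thus held the largest fibroblast, mural and macrophage differences, and the part of macrophages in the stromal values was not tested. Complement components and regulators had 16 of 28 members above 0 and a median of 0.24, which became -0.05 without R4. The medians were -0.14 in R2, 0.39 in R4 and -0.06 in R5. Their summed level was 842, 990 and 522 CPM in CL-CM-EE and 624, 834 and 654 CPM in CL-CM-EE-IVF, lower in R2 and R4. The 12 members below 0 reached -0.88. C4A, a component of the classical pathway, had 30.4, 51.8 and 80.5 CPM against 53.2, 78.8 and 113 CPM, and its log2 fold change was 0.64 ± 0.20. C7, a part of the lytic complex, had a log2 fold change of 0.65. Both genes were among the 8 members higher in each R number, and 4 members were lower in each.

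Steroidogenic genes were mostly above 0, but few had a low p. Of 26 members, 20 were above 0, 2 had an unadjusted p under 0.05 on the higher side and 0 on the lower, and the median was 0.28. The receptor for luteinizing hormone, LHCGR, had 54.0, 64.04 and 171 CPM in CL-CM-EE and 98.3, 138 and 252 CPM in CL-CM-EE-IVF, higher in each R number. Its log2 fold change was 0.84 ± 0.27. NR5A1, the nuclear receptor that drives steroidogenic genes, had 21.0, 26.5 and 39.3 CPM against 35.4, 41.3 and 51.6 CPM, a log2 fold change of 0.61 ± 0.20. In both genes R5 was highest in each group and the groups overlapped.

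HSD3B1, which makes progesterone from pregnenolone, had 423, 1063 and 554 CPM against 909, 1322 and 819 CPM, with a 95% interval of -0.02 to 1.39 for the log2 fold change. CYP11A1, the side-chain cleavage enzyme, had 298, 575 and 177 CPM against 504, 644 and 207 CPM, an interval of -0.33 to 1.14. STAR had 158, 463 and 153 CPM against 256, 527 and 144 CPM, and its interval was -0.58 to 1.16. For these 3 genes the largest difference was in R2, at 1.10, 0.76 and 0.70, and the intervals include both no difference and a doubling. Without R4, 7 members of the list had an unadjusted p under 0.05, all higher, and without R2 1 was higher and 1 lower.

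Markers of granulosa- and theca-derived luteal cells, some of which the steroidogenic list also holds, had 11 of 16 members above 0 and a median of 0.28, with 0.70 in R2, 0.17 in R4 and 0.18 in R5. INSL3, an insulin-like hormone of theca cells, had 22.9, 4.49 and 24.6 CPM in CL-CM-EE and 24.6, 6.98 and 89.8 CPM in CL-CM-EE-IVF, so that R5 gave most of its log2 fold change of 0.85. Without R2 the list median was 0.10, and 2 members were higher and 1 lower at an unadjusted p under 0.05. Among luteal hormone receptors, 12 of 25 were above 0 and the median was -0.08, or 0.0054 without R2. PTGFR, the receptor for prostaglandin F, had 120, 378 and 105 CPM against 206, 389 and 114 CPM, a log2 fold change of 0.34 (95% interval -0.40 to 1.08). FSHR, the receptor for follicle-stimulating hormone, had 5.83, 10.3 and 20.7 CPM against 11, 16.4 and 23.4 CPM.

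Cholesterol synthesis genes lay above 0 almost without exception: 25 of 26, all but SREBF1 (-0.23), with a median of 0.46. In all 3 R numbers 17 were higher and 0 lower, where 17.8% and 13.5% of all genes were. Their summed level was 1119, 3561 and 1478 CPM in CL-CM-EE and 1796, 3867 and 2239 CPM in CL-CM-EE-IVF. The medians were 0.73 in R2, 0.08 in R4 and 0.57 in R5, so R4, the libraries with the highest level, differed least. The stromal genes, in contrast, differed most in R4.

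INSIG1, the sterol sensor that holds back the pathway, had 47.9, 257 and 54.6 CPM against 65.0, 429 and 94.4 CPM, a log2 fold change of 0.65 ± 0.25. CYP51A1, the lanosterol demethylase, had 41.2, 183 and 92.9 CPM against 77.6, 209 and 155 CPM. SCAP, the escort of the sterol-regulated transcription factors, had 31.4, 78.8 and 63.8 CPM against 52.6, 92.2 and 85.3 CPM. In all, 5 members had an unadjusted p under 0.05, a count that became 14 without R4, 1 without R2, 1 without R5 and 0 without the block.

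In cholesterol uptake, storage and efflux, 17 of 26 members were above 0 and the median was 0.19. LRP1, a large endocytic receptor, had 59.8, 84.2 and 165 CPM in CL-CM-EE and 104, 218 and 199 CPM in CL-CM-EE-IVF. Its log2 fold change was 0.84 ± 0.22, and it was the only member of the list with an unadjusted p under 0.05. ABCA1, which exports cholesterol, had a log2 fold change of 0.49.

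**Figure D4:**
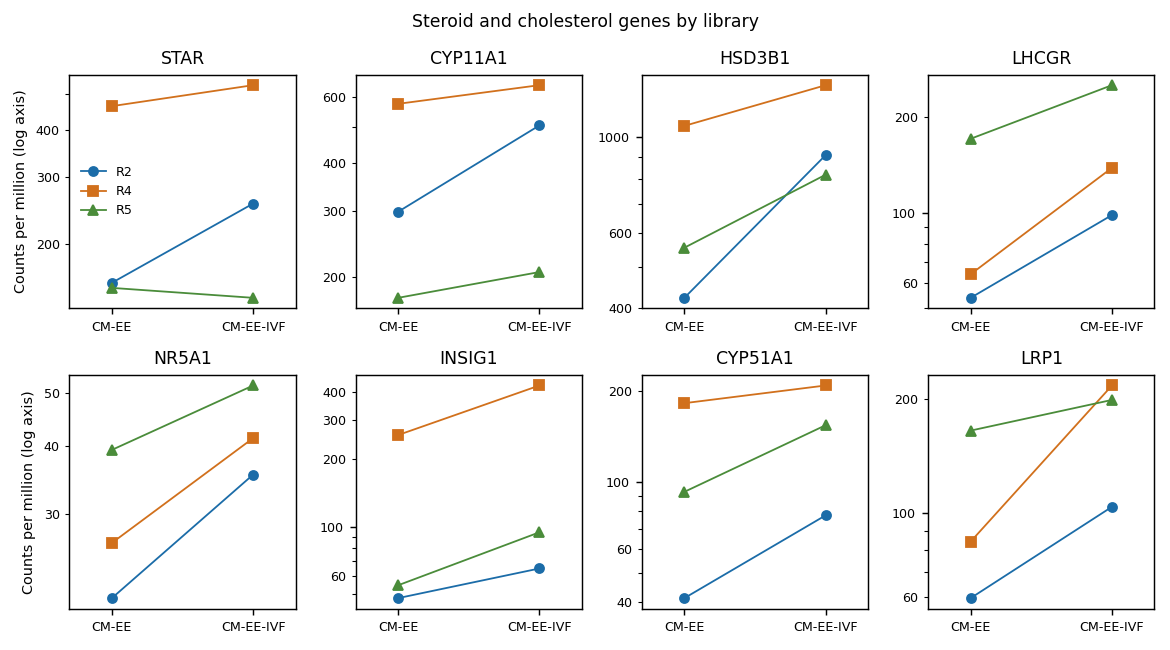
CPM on a log axis in the CL-CM-EE and CL-CM-EE-IVF library of each R number, joined by a line, for genes of steroid synthesis and cholesterol supply. STAR, CYP11A1 and HSD3B1 climb most in R2 (0.70, 0.76 and 1.10 log2 units), and STAR is slightly lower in R5 (-0.09).

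Nuclear and mitochondrial genes of the respiratory chain lay on opposite sides of 0. Of 46 nuclear-encoded subunits, 43 were above 0, with a median of 0.26 and medians of 0.27, 0.23 and 0.35 in R2, R4 and R5. None had an unadjusted p under 0.05. NDUFB8, a subunit of complex I, had 7.17, 6.51 and 2.90 CPM against 9.94, 10.9 and 4.84 CPM, and UQCRC1, of complex III, had 12.2, 11.6 and 9.97 CPM against 15.4, 14.6 and 13.8 CPM. With only the 6 libraries of the 2 groups in the fit, 5 members had an unadjusted p under 0.05 and 43 remained above 0.

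Of the 13 mitochondrially encoded protein transcripts, 0 were above 0 and the median was -0.24, with -0.29 in R2, 0.10 in R4 and -0.42 in R5. Without R5 the median was -0.055 and 1 of 13 was above 0. COX1 had 172600, 107700 and 206900 CPM in CL-CM-EE and 159900, 107800 and 128100 CPM in CL-CM-EE-IVF. COX3 had 54280, 33440 and 58210 CPM against 39270, 30340 and 51340 CPM. These 13 transcripts are counted from 1 circular genome and are not independent of each other.

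The mitochondrial share of counts was 52.4%, 46.0% and 64% in CL-CM-EE and 49.5%, 45.8% and 54.8% in CL-CM-EE-IVF, lower in each R number. The mean difference was -4.11 percentage points with an SD of 4.64 (n = 3 pairs; p = 0.25 in a two-sided exact permutation test within R numbers, the smallest p that 3 pairs allow). For protein-coding mitochondrial transcripts alone it was -1.89 points, but their share was higher in CL-CM-EE-IVF in R2 (38.4% against 37.7%) and R4 (28.2% against 27.2%) and lower in R5 only (40.7% against 48.0%). Without R5 that difference was 0.81 points. A smaller share for one class raises the CPM of all others, and TMM scaling was used to limit this. With mitochondrial and ribosomal RNA genes left out before scaling, the median of the nuclear subunits was 0.24.

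Cytosolic ribosomal protein genes had 73 of 80 members above 0 and a median of 0.18, with -0.15 in R2, 0.35 in R4 and 0.37 in R5. Their levels followed R2 strongly, with summed levels of 13950 and 12960 CPM in the R2 libraries and 6311 to 9174 CPM in the others. RPL34 had 379, 187 and 169 CPM against 404, 283 and 281 CPM. Mitochondrial ribosomal protein genes had 53 of 76 members above 0, a median of 0.16 and 2 with an unadjusted p under 0.05. These were MRPL46, with 0.896, 3.14 and 2.02 CPM against 3.48, 5.01 and 3.68 CPM, and MRPL28, both at low levels and without overlap. Ribosomal protein genes have many processed pseudogenes, and how shared reads were counted is not given in these sources.

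Endothelial markers lay below 0. Of 19 members, 2 were above 0 (VWF and PROX1), 1 had an unadjusted p under 0.05 on the lower side and 0 on the higher, and the median was -0.21. The medians were -0.45 in R2, -0.47 in R4 and 0.12 in R5. CDH5, the cadherin of endothelial junctions, had 351, 120 and 67.6 CPM in CL-CM-EE and 227, 71.7 and 75.9 CPM in CL-CM-EE-IVF. PECAM1, an adhesion protein of the same junctions, had 183, 49.4 and 68.2 CPM against 98.0, 35.6 and 68.0 CPM. CLDN5, a tight junction protein, had 54.4, 6.34 and 4.17 CPM against 28.4, 4.00 and 3.77 CPM, and a log2 fold change of -0.61 ± 0.28. In these genes R2 was the highest in both groups, and the groups overlapped.

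Of 39 angiogenic ligands and receptors, 14 were above 0, 2 had an unadjusted p under 0.05 on the higher side and 4 on the lower, and the median was -0.05. The 4 became 1 without R2, 1 without R4 and 0 without the block. DLL4, the Notch ligand of tip cells, had 183, 56.5 and 32.5 CPM against 114, 30.3 and 28.3 CPM, a log2 fold change of -0.60 ± 0.19. The higher genes were PDGFRA, described above, and AGTR1, the angiotensin receptor, with 6.37, 6.74 and 1.93 CPM against 13.8, 6.86 and 5.95 CPM. FLT1, a receptor for vascular endothelial growth factor, was chosen after its values were seen and had a log2 fold change of -0.47. For FLT1 the differences were -0.58 in R2, -0.78 in R4 and 0.00 in R5.

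**Figure D5:**
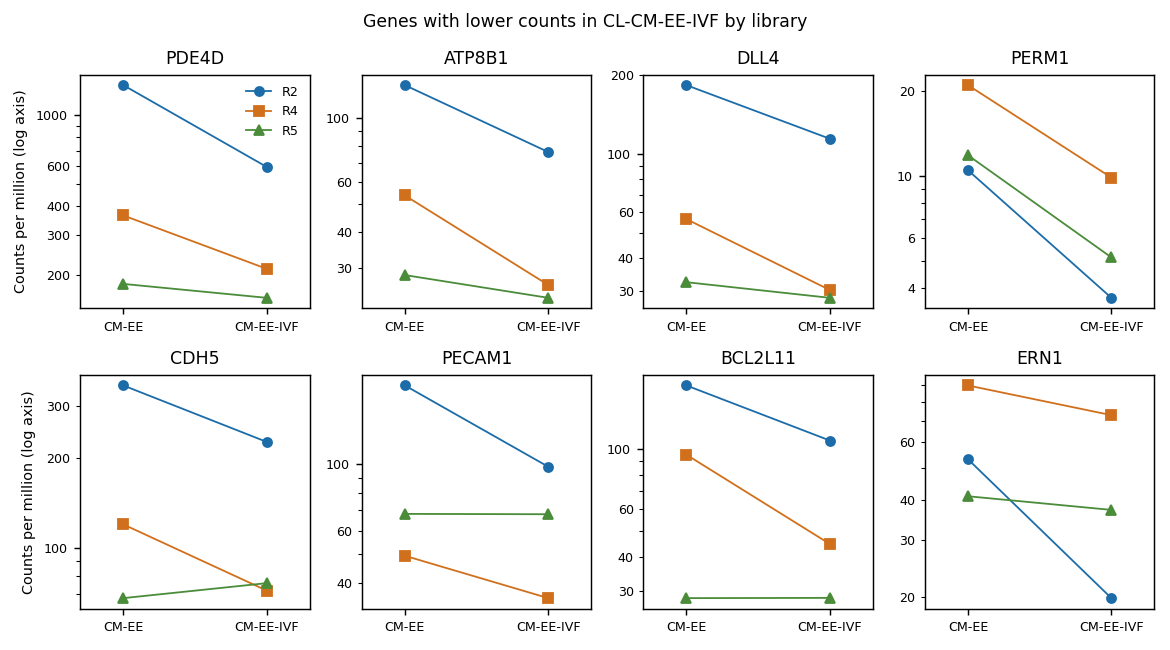
CPM on a log axis in the CL-CM-EE and CL-CM-EE-IVF library of each R number, joined by a line, for 8 genes with a log2 fold change below 0. Lines descend in R2 and R4, whereas R5 is nearly level for PECAM1 and BCL2L11 (0.00 log2 units each) and slightly higher for CDH5 (0.17).

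Interferon-stimulated genes, the usual readout of the conceptus signal, had 34 of 51 members above 0 and a median of 0.14. None had an unadjusted p under 0.05 on the higher side and 1 on the lower side. ISG15, a ubiquitin-like modifier, had 24.6, 41.8 and 17.8 CPM in CL-CM-EE and 19.8, 36.5 and 22.5 CPM in CL-CM-EE-IVF, and its log2 fold change of -0.07 had a 95% interval of -0.56 to 0.42. MX1, an antiviral GTPase, had 14.3, 123 and 80.9 CPM against 23.0, 151 and 77.9 CPM, with an interval of -0.15 to 0.78. The intervals of both genes leave out a doubling of their level. The member on the lower side was LGALS9, a galectin, at -0.95 ± 0.41, with 44.0, 90.7 and 165 CPM against 52.6, 26.1 and 80.2 CPM, higher in R2 and lower in R4 and R5.

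Antigen presentation genes had 16 of 26 members above 0, a median of 0.08, and 2 members with an unadjusted p under 0.05, both lower. Without R2 this count was 0, and without R5 the median was -0.064 with 11 of 25 above 0. NLRC5, the activator of class I genes, had 96.2, 105 and 59.0 CPM against 53.7, 51.0 and 54.9 CPM, without overlap and with a difference of only -0.10 in R5. BOLA-DOB, a chain of a class II modulator, was under 8 CPM in all 6 libraries and had a log2 fold change of -2.76.

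Prostaglandin genes had 9 of 24 members above 0 and a median of -0.15. PTGIS, the prostacyclin synthase, had 17.5, 26.2 and 29.1 CPM in CL-CM-EE and 24.9, 39.0 and 48.9 CPM in CL-CM-EE-IVF, a log2 fold change of 0.60 ± 0.22. PTGS2, the inducible cyclooxygenase, had 3.04, 19.7 and 1.10 CPM against 2.08, 12.8 and 1.63 CPM, with a 95% interval of -1.26 to 0.59. TBXAS1, the thromboxane synthase, had 16.4, 33.3 and 19.4 CPM against 10.96, 13.9 and 17.8 CPM, lower in each R number. NF-kB targets and inflammatory cytokines had 13 of 34 members above 0 and 0 with an unadjusted p under 0.05 in either direction. RELB, a subunit of that factor, had 19.0, 22.3 and 13.8 CPM against 15.2, 14.0 and 10.1 CPM.

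Lists of cell stress differed in direction between the R numbers. For hypoxia and glycolysis the medians were -0.52 in R2, -0.16 in R4 and 0.44 in R5, and the median over the fit was -0.11 with 15 of 37 members above 0. Without R2 it turned to 0.11 with 26 of 37 above 0, and without R5 it was -0.28 with 5 of 37. For immediate early genes the medians were -0.31, -0.03 and 0.42, and that of the fit turned from -0.07 to 0.078 without R2 and to 0.067 without R4. The unfolded protein response had 0.57 in R5 and values close to 0 in R2 (-0.04) and R4 (-0.10). Heat shock proteins and co-chaperones had -0.24 in R4 and 0.35 in R5, and 0 of 29 had an unadjusted p under 0.05. ERN1, a sensor of unfolded proteins, had 53.2, 89.8 and 41.0 CPM against 19.9, 72.8 and 37.2 CPM, with most of its log2 fold change of -0.68 from R2. HMOX1, the heme oxygenase, had 506, 159 and 17.2 CPM against 188, 89.5 and 24.7 CPM, so R5 was opposite to R2 and R4.

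BCL2L11, a promoter of cell death, had 170, 94.9 and 28.3 CPM against 107, 44.7 and 28.4 CPM, and a log2 fold change of -0.60 ± 0.21. It was 1 of 32 genes of apoptosis and survival with an unadjusted p under 0.05, and 13 of the 32 were above 0. Cell cycle genes had 17 of 37 members above 0 and 0 with an unadjusted p under 0.05. Antioxidant genes had 21 of 35 above 0 and a median of 0.07.

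Genes of extracellular vesicle formation and release, relevant to the series' title, had 28 of 42 members above 0, a median of 0.07 and 0 with an unadjusted p under 0.05. SDCBP, the adaptor syntenin, had 244, 265 and 81.8 CPM against 157, 162 and 93.2 CPM (log2 fold change -0.40 ± 0.22). VPS28, a subunit of the sorting machinery, had 7.77, 13.6 and 8.08 CPM against 11.9, 15.2 and 11.6 CPM. The insulin-like growth factor system had 10 of 19 members above 0. Its lowest p belonged to STC1, the secreted glycoprotein stanniocalcin, with 356, 63.4 and 25.9 CPM against 176, 38.6 and 29.5 CPM. Matrix proteases and inhibitors had 12 of 27 members above 0, with LOX, which crosslinks collagen, at 0.81 and PLAT, the tissue plasminogen activator, at -0.58.

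Of the markers of other cell types, those of mast cells summed to 467, 184 and 85.6 CPM in CL-CM-EE and 305, 132 and 130 CPM in CL-CM-EE-IVF, with 1 of 5 members above 0 and a median of -0.59, or -0.19 without R2. The members HPGDS, MS4A2 and GATA2 had only 0.847, 0.0498 and 9.81 CPM in CL-CM-EE R2. The rest of the list thus carried the sums, which are no measure of mast cells. T and NK cell markers summed to 33.2, 38.0 and 39.1 CPM in CL-CM-EE and 21.4, 28.4 and 39.3 CPM in CL-CM-EE-IVF, with 6 of 19 above 0 and a median of -0.26, or -0.033 without R2. B and plasma cell markers summed to at most 12.5 CPM and had a median of 0.58 over 8 members, which turned to -0.07 without R4. For trophectoderm and embryo, 7 of 17 listed genes were tested, and the summed level of 9.84 to 65.4 CPM in the 6 libraries was highest in both R4 libraries. KRT8, a keratin that both epithelial lists hold, made up 40.2 CPM of that level in CL-CM-EE R4 and 36.3 CPM in CL-CM-EE-IVF R4. PAG11, a product of the bovine placenta, and SERPINA14, the uterine milk protein, never exceeded 14 and 25 counts in these libraries. Among the 11 endometrial epithelial genes tested 5 were above 0, and DSP, a desmosomal protein, had 2.59, 0.898 and 1.76 CPM against 12.2, 0.646 and 3.08 CPM.

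The medium of explants with an in vivo embryo gives the neighbouring comparison, which uses the same CL-CM-EE libraries, so the values are set side by side only. In R2, CL-CM-EE-AI deviated little with CL-CM-EE (r = 0.11) or with CL-CM-EE-IVF (r = 0.08). R2 is thus a weaker block for every contrast with CL-CM-EE-AI than for CL-CM-EE-IVF against CL-CM-EE. The list medians for CL-CM-EE-IVF and for CL-CM-EE-AI, each minus CL-CM-EE, were 0.46 and 0.44 for cholesterol synthesis, 0.26 and 0.39 for nuclear respiratory chain subunits, and -0.21 and -0.22 for endothelial markers. For fibroblasts they were 0.80 and 0.25, for mural cells 0.50 and 0.20, and for collagens 0.35 and 0.15. The direct test of CL-CM-EE-IVF against CL-CM-EE-AI called 0 of 18939 genes (0%), with 163 at an unadjusted p under 0.05, and DESeq2 called 0 genes with 220. WDR19 differed between the embryo media by 0.16 (95% interval -0.25 to 0.56) and LHCGR by -0.21, so neither was shown to depend on the origin of the embryo. NOTCH3 was higher by 0.66 in CL-CM-EE-IVF (95% interval 0.0030 to 1.33) and CDH11 by 0.36 (0.0085 to 0.71), both with an edgeR adjusted p of 1. SPATC1 had a difference of -3.51 (95% interval -5.99 to -1.02), with 1.12, 1.64 and 5.82 CPM in CL-CM-EE-AI. WDR19, NOTCH3, CDH11 and SPATC1 were named for a low p against CL-CM-EE, and the same CL-CM-EE-IVF libraries enter here. That choice favours differences from CL-CM-EE-AI in the same direction, and the intervals are not adjusted for it.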

How the data were processed

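RNA of 12 corpus luteum libraries was analysed, 3 in each of 4 groups, with R2, R4 and R5 in each group. The authors deposited read counts per gene. The deposited columns were read as counts or estimated counts, and since all values were whole nothing was rounded. STAR, featureCounts, DESeq2, cutadapt and Trim Galore are named, without versions, in the submitters' processing notes. Genome build, annotation and strand setting are not given in these sources, and the library kit named in the labels refers to the endometrial explants. No coordinates or sequences are printed for that reason.

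Counts were analysed with R 4.3.3 and edgeR 4.0.16. Of 19112 genes, 18939 passed filterByExpr by group. Libraries were scaled by TMM, all 12 libraries entered one quasi-likelihood fit with group and R number (6 residual degrees of freedom), and Benjamini-Hochberg adjustment ran over all genes with a threshold of 0.05. The R number was used as a block because the comparison was defined that way. Between CL-CM-EE and CL-CM-EE-IVF, libraries with the same number deviated together, with r of 0.57, 0.36 and 0.60. Across the 2 pairs of R2 libraries r was only 0.08 to 0.11. CPM values are counts per 1000000 of the TMM-scaled library, and differences within an R number are of log2 CPM with a prior count of 2. The fit was checked on simulated counts. Symbols matched the reference table of gene names for 17386 genes (91.0%), and mitochondrial genes were named through it.

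Named genes were the 10 per direction with the lowest p, at least 1 CPM in either group and the same direction in all 3 R numbers, up to 3 members per list by lowest p, and 8 luteal and interferon genes named in any case. Members and lists were chosen with earlier results of these data known. Alternatives were DESeq2 1.42.0, RLE size factors, no filter, no block, only the 6 libraries, no mitochondrial or ribosomal RNA genes, and leaving out each library or R number. A fit with R2 as 2 blocks, the counts of list members without each R number, and the protein-coding mitochondrial share without each R number were added after seeing the data. Mitochondrial shares were compared by an exact permutation test. The endometrial tables were not used here. A few genes that the rule names are not reported here. Total counts were 16536797 to 25747637 per library of the comparison, which limits precision for low genes.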

Additional observations from a re-analysis of the deposited data

How the results depend on the processing

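The count of 0 genes past the adjusted threshold held with and without the replicate block, with the 6 libraries alone, with DESeq2, RLE size factors, no filter, no mitochondrial or ribosomal RNA genes, and R2 as 2 blocks, with lowest adjusted p-values from 0.0619 to 1. Leaving out 1 library or 1 R number gave 0 to 1 genes. The count at an unadjusted p under 0.05 was 976, and became 285 without the replicate block, 1603 with only the 6 libraries, and 509 to 1297 with a library or an R number left out. With R2 as 2 blocks it was 1294, with 728 higher and 566 lower. The contrast of the embryo media stayed at 0 genes without the block and with DESeq2. The mitochondrial share difference stayed below 0, from -1.55 to -6.07 percentage points with an R number left out. Of 2215 values of 139 named genes under these alternatives, 2201 kept their direction. Most of these genes were named for a low p, some also for the same direction in all 3 R numbers. The alternatives reuse the same libraries, so the kept directions are no independent support. The reversals all came from leaving out libraries, and over these alternatives the log2 fold change ran from -0.0012 to 0.48 for STAR, from -0.25 to 0.062 for ISG15, from -0.022 to 0.59 for VWF, from -0.17 to 0.41 for PROX1, from -0.21 to 5.13 for KCNQ5, from -11.33 to 1.35 for ANKRD63, from -0.0031 to 1.00 for ACTA2 and from -0.033 to 0.72 for MRC1. Of 623 list medians under alternatives, 34 moved by more than the SD of the 3 medians within R numbers. With 3 libraries per group and a median standard error of 0.35, differences well under 1 log2 unit could not be told from 0 for most genes. Larger differences did not pass either: 1503 genes had a log2 fold change above 1 or below -1, and 0 passed the adjusted threshold.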

Other observations

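Some abundant RNAs outside the lists stood together, and all genes of this paragraph were chosen after their values were seen. RN7SL1, the RNA of the signal recognition particle, had 21270, 18210 and 11910 CPM in CL-CM-EE (R2, R4, R5) and 10340, 16340 and 7885 CPM in CL-CM-EE-IVF, a log2 fold change of -0.60 ± 0.24. The smaller mitochondrial ribosomal RNA, KEH36_r02, had 39550, 32410 and 33210 CPM against 19620, 30710 and 23760 CPM, without overlap between groups, and the larger one, KEH36_r01, had a log2 fold change of -0.39. For RN7SL1 and KEH36_r02 R4 differed least. All ribosomal RNA together took 19.0%, 20.7% and 19.0% of counts in CL-CM-EE and 13.8%, 20.9% and 15.9% in CL-CM-EE-IVF, lower in R2 and R5 but not in R4, and its part in the other values was not tested. Among abundant messenger RNAs, MGP, an inhibitor of calcification made by mural cells, had 342, 335 and 176 CPM against 514, 544 and 342 CPM. A2M, a protease inhibitor of plasma and tissue, had 190, 467 and 206 CPM against 262, 664 and 374 CPM. CALD1, an actin-binding protein of smooth muscle, and DST, a cytoskeletal linker, had log2 fold changes of 0.62 and 0.86. TCF4 and WWTR1, both transcriptional regulators, had -0.53 and -0.54, with R5 level (0.0004 and 0.0092). None of these genes passed the adjusted threshold.

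PPID and NGLY1 were chosen because they passed the adjusted threshold once R2 (PPID) or CL-CM-EE R2 (NGLY1) was left out. Such a choice favours genes that differ in R4 and R5 but not in R2, so their common pattern is no separate result. PPID had 10.5, 84.6 and 79.6 CPM in CL-CM-EE and 12.8, 12.6 and 12.2 CPM in CL-CM-EE-IVF. NGLY1 had 12.4, 45.6 and 80.7 CPM against 14.5, 15.4 and 25.1 CPM. In both genes the R4 and R5 libraries of CL-CM-EE were higher than the other 4 libraries, and R2 was level.

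In 13 genes, chosen after their values were seen, 1 of the 6 libraries held at least 100 CPM and at least 10 times the level of the next library. Identifiers that start with LOC or KEH36 were left out of this count. KLF15, a zinc finger transcription factor, had 953 CPM in CL-CM-EE-IVF R4 and at most 2.31 CPM in the other 5. KCNQ5, a potassium channel, had 2059 CPM in CL-CM-EE-IVF R2 and at most 17.7 CPM in the other 5. ANKRD63 had 1034 CPM in CL-CM-EE R2 and at most 0.525 CPM in the other 5. Of the 13, the high library was CL-CM-EE R2 for 4, CL-CM-EE R5 for 2, CL-CM-EE R4 for 1, and CL-CM-EE-IVF R2 and R4 for 3 each.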
